A study of Mus musculus with 42 samples.

Results

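SOX2 occupancy was compared between CHIR-treated CdxKO cells and untreated wild-type (WT) cells in 6 ChIP-seq peak lists, 3 independent replicates a group. They were chosen by antibody, genotype and treatment as labelled, from 30 libraries with a peak list among 42 samples. All lines derive from HM1 TetON mouse embryonic stem (ES) cells of the 129 background and were grown in N2B27 with bFGF and LGK974, an inhibitor of the porcupine enzyme that WNT ligands need for secretion. CHIR99021 (CHIR), a GSK3 inhibitor that stabilises β-catenin and so turns on the WNT response, was either added for the last day or left out, and chromatin was taken at day 3 (72 h). The CdxKO line carries mutations of Cdx1, Cdx2 and Cdx4 (Cdx1/2/4-/-). Since genotype, cell line and CHIR all differ between the groups, their effects cannot be told apart in this comparison. SOX2 libraries of CHIR-treated WT and T/BraKO (T/Bra-/-) cells, and β-catenin and LEF1 libraries of CHIR-treated CdxKO cells, 3 of each, were used beside them. Peak lists hold no transcript levels, so neither the cell type nor the loss of the CDX proteins could be checked in them.

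SOX2 is an HMG-box transcription factor that maintains pluripotent and neural progenitors, often together with OCT4 on a composite DNA element. TCF and LEF factors, which share the HMG fold but prefer a different sequence, bring β-catenin to WNT target genes. CDX proteins are caudal homeobox factors, switched on by WNT in the epiblast, that are needed for the trunk and tail and for posterior Hox gene expression. The question was whether SOX2 in CHIR-treated cells without CDX stays on the sites of untreated WT cells, which are epiblast-like, and which sites it takes up in addition.

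The CdxKO lists held 163926, 86068 and 172423 peaks and the WT lists without CHIR 88643, 81239 and 201773. Their mean log10 numbers, 5.13 ± 0.17 (SD, n = 3) and 5.05 ± 0.22 (n = 3), were closer than the spread within groups (exact permutation test, two-sided p = 0.9, where 3 against 3 cannot go below 0.1). The fold and p values of the peaks implied 17.4 M to 21.3 M reads in CdxKO and 20.5 M to 24.4 M without CHIR. To compare lists of unlike length, the 20000 peaks with the smallest q value were taken from each and merged where they overlapped by 1 bp or more, which gave 61879 regions. A fold is the enrichment at a peak summit as the authors' peak caller gave it. Among the 20000 best peaks its median was 7.60, 7.63 and 7.27 in CdxKO and 8.98, 9.15 and 8.32 without CHIR, lower in each CdxKO library.

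About 50% of the SOX2 sites of untreated WT cells were found again in CHIR-treated CdxKO cells. The 15076 sites called in at least 2 of the 3 WT libraries without CHIR lay under a peak in 50.2%, 55.4% and 46.2% of cases in the CdxKO libraries (mean 50.6% ± 4.63, SD, n = 3). CHIR-treated WT libraries held 24.7%, 23.4% and 42.1% of them, and T/BraKO libraries 39.4%, 53.6% and 49.0%. Each CdxKO library thus kept more of the sites than any CHIR-treated WT library, whereas CdxKO and T/BraKO overlapped. The CHIR-treated WT libraries differed in implied depth, at 12.1 M, 16.8 M and 20.3 M reads, against 17.4 M to 21.3 M in CdxKO. The deepest of them, replicate 3, held 42.1% of the sites, beside 46.2% in CdxKO replicate 3. Whether depth sets the gap was not tested. CdxKO exceeded WT with CHIR by 20.5 percentage points (exact permutation test, two-sided p = 0.1, the smallest possible, and 0.232 after Benjamini-Hochberg adjustment over 3 comparisons). The difference from T/BraKO was 3.24 points (exact p = 0.6) and fell to -0.73 points without T/BraKO replicate 1. Against both groups together it was 11.9 points (exact p = 0.155, adjusted 0.232). One of the CHIR-treated WT lists, replicate 1, held 1008922 peaks, the most of the lists used here. T/BraKO replicate 3 held 26940, the fewest. In full lists 44482 sites were followed, of which CdxKO kept 47.3% ± 2.28, WT with CHIR 45.1% ± 11.3 and T/BraKO 40.1% ± 10.3. By replicate, WT with CHIR kept 55.8%, 33.2% and 46.1% and T/BraKO 45.2%, 46.9% and 28.3%. With 50000 peaks a list CdxKO kept 47.2% ± 4.21 and WT with CHIR 28.2% ± 9.28. The gap between CdxKO and WT with CHIR was thus seen in lists of equal length. In full lists, which differ in length, the 2 groups overlapped.

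**Figure D1:**
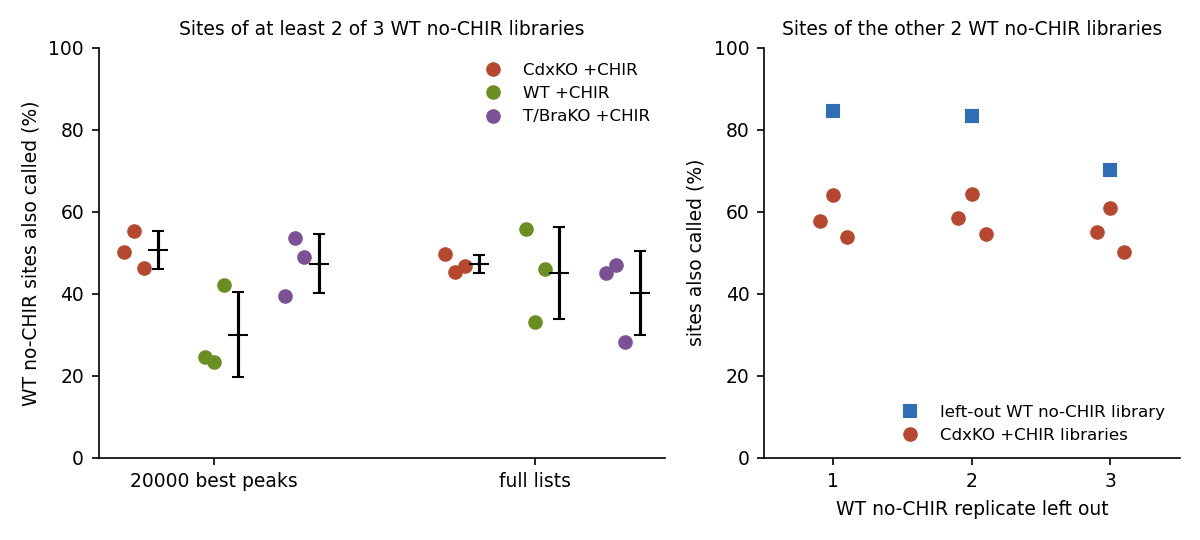
Share of WT SOX2 sites without CHIR (vertical axis, percent) that lay under a peak in each library, as points with the group mean and SD, for the 20000 best peaks and for full lists. Among the best peaks the 3 CdxKO libraries (46.2% to 55.4%) lie above the 3 CHIR-treated WT libraries (23.4% to 42.1%), and in full lists the groups overlap.

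Replicates of untreated WT cells recovered more of these sites than CdxKO cells did. When each WT library without CHIR was left out in turn and the sites were set by the other two, the left-out library held 84.5%, 83.2% and 70.1% of them, against CdxKO means of 58.6%, 59.1% and 55.3%. In the opposite direction the gap was smaller. A left-out CdxKO library held 77.1%, 78.7% and 70.9% of the sites set by the other CdxKO libraries, and the WT libraries without CHIR held on average 72.9%, 71.6% and 72.8% of the same sites. Of the 11380 sites called in at least 2 CdxKO libraries, 68.7%, 66.7% and 59.7% lay under a peak in the 3 WT libraries without CHIR. SOX2 in CdxKO cells thus occupied fewer of the untreated sites than a replicate would, and most of what it did occupy was shared. The overlap of pairs of lists, as the shared part of all regions in either list (Jaccard index), was 0.369 within WT without CHIR, 0.242 within CdxKO and 0.242 between the groups. The mean index within groups exceeded that between them by 0.0632 (exact test over the 10 splits of 6 libraries, p = 0.1, the smallest possible). Within CdxKO alone the index was no higher than between the groups. Leaving out WT replicate 1, 2 or 3 without CHIR lowered the excess to 0.0310, 0.0287 and 0.0346 (exact p = 0.2, 0.2 and 0.3). With 5000 peaks a list the excess was 0.139, and with full lists 0.0134 (exact p = 0.2).

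Retention followed the rank of the site. The 15076 sites were divided into 10 groups of equal size by their mean rank in the WT lists without CHIR. The CdxKO libraries held on average 88.3% of the top group, 72.6% of the second, 49.9% of the fifth and 25.3% of the last. In CHIR-treated WT cells the share ran from 68.5% to 13.6%, and in T/BraKO cells from 86.3% to 21.5%. In full lists CdxKO held 95% of the top group and 55.0% of the last, so that many of the weaker sites missing from the best peaks were still called lower in the list.

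**Figure D2:**
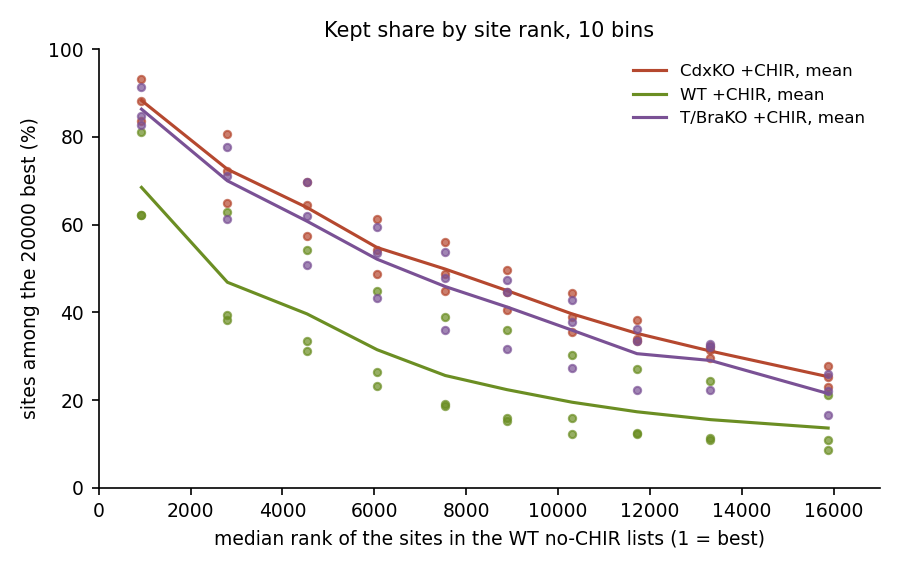
Share of WT SOX2 sites without CHIR that lay under a peak (vertical axis, percent, mean of 3 libraries) against the rank group of the site (horizontal axis, 1 is the strongest). The CdxKO line falls from 88.3% to 25.3%, the line of CHIR-treated WT from 68.5% to 13.6% and that of T/BraKO from 86.3% to 21.5%.

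The 5 regions with the best mean rank over all 6 libraries, chosen for being high in both groups, lay nearest Med13l, Mtf2, Kif21a, Klf13 and Ube2d2a. The Klf13 region, 18342 bp upstream of the start of this Krüppel-like factor gene, had folds of 48.4, 76.8 and 138 in CdxKO and 84.8, 67.7 and 73.4 without CHIR. The Mtf2 region, 159 bp upstream of the start of a Polycomb-associated protein gene, had folds of 87.3, 65.1 and 125 in CdxKO and 79.1, 115 and 53.9 without CHIR. The groups overlapped at both. The nearest gene, or a listed gene whose locus holds the region, is named throughout as a position, not as a target.

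Regions were then divided by the libraries that called them. Of the 61879 regions, 458 (0.74%) were gained, that is, among the 20000 best peaks of all 3 CdxKO libraries and of no WT library without CHIR. In all 6 lists 3784 regions (6.12%) were kept, and 1522 (2.46%) were lost, called in all 3 WT libraries without CHIR and in no CdxKO library. Of 5761 regions called in all 3 CdxKO libraries 65.7% were called in all 3 WT libraries and 7.95% in none. Of 8303 regions called in all 3 WT libraries 45.6% were called in all 3 CdxKO libraries and 18.3% in none. In full lists, with 597909 regions, 997 (0.167%) were gained, 9811 (1.64%) kept and 3053 (0.511%) lost, so that losses outnumbered gains in both. The rule asks for all 3 libraries of a group, and CdxKO libraries overlapped less among themselves (mean Jaccard index 0.242 against 0.369). Among the best peaks 24263 regions were called in 1 CdxKO library alone and 15772 in 1 WT library alone. How far this sets the excess of losses was not tested. With 1 library left out, and so fewer lists to meet, gained regions numbered up to 1028 (without CdxKO replicate 3) and lost regions up to 3036 (without WT replicate 3). Most gained regions had a peak in at least 1 full WT list without CHIR. Only 102 of the 458 (22.3%) had no peak in any full WT list without CHIR, and 97 (21.2%) had a peak in all 3. Of the lost regions 529 of 1522 (34.8%) had no peak in any full CdxKO list and 145 (9.53%) had a peak in all 3.

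Short sequence words around the summit differed between the classes. Windows of 100 bp on either side of the summit were searched on both strands for 5 short forms. The TCF/LEF form was CTTTGAN with A or T at N. The SOX form was CCNTTGT with A or T at N. The CDX form was NNATAAA with C or T and then A or C in front, and the T-box form was AGGTGTGA. The composite OCT-SOX form is the one in capitals in the Klf13 window, with any base after its opening TTGT, which can also end a SOX form. A match describes the letters and does not show binding. The 6 windows printed here were chosen to show what the results turn on, and are from the GRCm38.p6 reference (mm10 coordinates), plus strand, not from the 129 genome of the cells. Capitals mark the TCF/LEF forms in the windows of Naa30, B4galt5, Axin2 and Hoxb1, the OCT-SOX form in the Klf13 window and the SOX forms in the Zranb2 window. Naa30 and B4galt5 are gained regions, Axin2 and Hoxb1 had higher folds in CdxKO, Klf13 was kept and Zranb2 had lower folds.
Naa30, chr14:49155600-49155800: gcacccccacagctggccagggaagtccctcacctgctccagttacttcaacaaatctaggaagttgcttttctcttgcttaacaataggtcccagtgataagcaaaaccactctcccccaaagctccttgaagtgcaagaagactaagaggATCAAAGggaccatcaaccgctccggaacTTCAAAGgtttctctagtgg
B4galt5, chr2:167379407-167379607: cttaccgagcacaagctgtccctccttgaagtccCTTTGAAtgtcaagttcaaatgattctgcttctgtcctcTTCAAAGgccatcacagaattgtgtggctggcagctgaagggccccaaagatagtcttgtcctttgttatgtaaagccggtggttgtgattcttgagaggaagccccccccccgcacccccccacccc
Axin2, chr11:108920730-108920930: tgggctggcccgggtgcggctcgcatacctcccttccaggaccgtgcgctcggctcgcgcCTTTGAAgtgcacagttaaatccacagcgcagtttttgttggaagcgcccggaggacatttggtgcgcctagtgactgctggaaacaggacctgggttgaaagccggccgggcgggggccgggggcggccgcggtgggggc
Hoxb1, chr11:96365455-96365655: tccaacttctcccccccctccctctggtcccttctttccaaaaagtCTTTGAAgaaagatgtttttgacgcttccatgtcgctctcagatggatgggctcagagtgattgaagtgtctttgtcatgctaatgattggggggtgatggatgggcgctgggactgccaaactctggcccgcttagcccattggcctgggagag
Klf13, chr7:63957157-63957357: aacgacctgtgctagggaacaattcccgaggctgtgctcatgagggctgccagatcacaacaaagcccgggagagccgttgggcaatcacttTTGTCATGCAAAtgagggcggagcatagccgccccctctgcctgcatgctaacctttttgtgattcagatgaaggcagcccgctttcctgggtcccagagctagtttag
Zranb2, chr3:157321173-157321373: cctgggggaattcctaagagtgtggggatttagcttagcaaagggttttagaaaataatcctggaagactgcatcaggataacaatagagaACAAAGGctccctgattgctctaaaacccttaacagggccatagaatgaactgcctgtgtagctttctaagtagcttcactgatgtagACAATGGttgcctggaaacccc

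The Naa30 and B4galt5 windows each hold a pair of TCF/LEF forms, starting at bases 153 and 182 in the first and at bases 35 and 74 in the second, where the summit is the middle base. The B4galt5 window also has a SOX form, at base 134. In the Klf13 window the OCT-SOX form starts at base 93 and so covers the summit, and in the Zranb2 window a SOX form starts at base 92.

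A TCF/LEF form was present in 38.6% of the 458 gained regions (95% Wilson interval 34.3% to 43.2%), 12.2% of the kept (11.2% to 13.3%) and 8.02% of the lost (6.75% to 9.49%), against 10.9% of all 61879 regions. These intervals cover counting error only. Windows moved by 1000 bp held the form in 7.64%, 7.33% and 8.25% of cases, so the lost regions were at the level of their surroundings. Of the 102 gained regions without a peak in any full WT list without CHIR 47.1% had a TCF/LEF form (37.7% to 56.7%). The SOX form was less frequent in gained regions, at 27.3% (23.4% to 31.5%), than in kept (36.5%, 35.0% to 38.1%) or lost ones (34.4%, 32% to 36.8%). Over all regions it was in 22.5%, below each class. Windows moved by 1000 bp held it in 8.19%, 7.29% and 6.80%. A TCF/LEF form without a SOX form was found in 29.0% of gained, 8.22% of kept and 5.72% of lost regions, and both forms in 9.61%, 3.99% and 2.30%. The TCF/LEF and SOX forms differ in few letters, and looser SOX sites were not searched for. CDX forms were in 10.0% of gained, 7.69% of kept and 10.2% of lost regions, below the 14.8%, 16.2% and 17.2% of the moved windows. Over all regions the share was 11.2%. T-box forms were in 2.62%, 0.846% and 0.788%, against 0.992% of all regions. Gained regions were less often promoters (within 1000 bp of a gene start) than kept ones, 12.9% against 21.5%, and lost regions were in 6.90%, against 17.9% over all regions. The median distance to the nearest start was 31321 bp for gained, 24115 bp for kept and 47216 bp for lost regions.

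**Figure D3:**
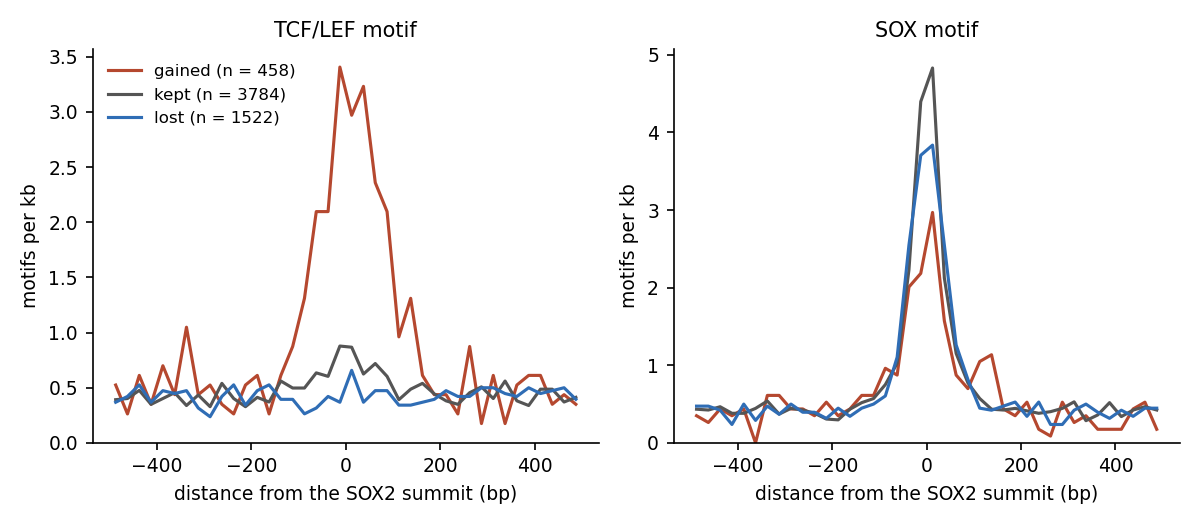
Density of TCF/LEF forms and of SOX forms (vertical axes, matches per kb) against the distance from the summit (horizontal axis, bp, in bins of 25 bp) in gained, kept and lost regions. The TCF/LEF density of gained regions reaches 3.41 per kb near the summit, against 0.877 in kept and 0.657 in lost regions.

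For the TCF/LEF form the same shift was seen in each library as a whole. A TCF/LEF form was in 12.8%, 12.7% and 13.1% of the 20000 best CdxKO peaks (mean 12.9% ± 0.19, n = 3) and in 9.46%, 9.79% and 10.0% of those of WT without CHIR (mean 9.76% ± 0.28). The groups did not overlap (exact permutation test, p = 0.1, the smallest possible, adjusted 0.25 over 5 forms), and windows moved by 1000 bp held 8.02% and 7.96%. The form was in 11.4% ± 1.20 of the best peaks of CHIR-treated WT and 12.8% ± 1.28 of T/BraKO, so the higher share was not particular to CdxKO. The SOX form was in 25.0%, 26.5% and 22.9% of CdxKO peaks and in 30.8%, 32.7% and 26.1% of WT peaks without CHIR, where the groups overlapped (exact p = 0.2, adjusted 0.333). In CHIR-treated WT and T/BraKO cells it was in 17.1% ± 3.41 and 23.2% ± 2.74 of peaks. The T-box form was in 1.08% ± 0.10 against 0.74% ± 0.12 of peaks (exact p = 0.1, adjusted 0.25). The CDX form was in 10.3% ± 0.78 of CdxKO and 9.45% ± 1.28 of WT peaks without CHIR (exact p = 0.3, adjusted 0.375), beside 15.4% in CHIR-treated WT and 13.9% in T/BraKO cells. Moved windows held the CDX form in 16.2%, 16.3%, 17.1% and 16.6% in the same order, more than the summits in each group. The OCT-SOX form was in 0.625% against 0.565% of peaks (exact p = 0.4).

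SOX2 regions gained in CdxKO cells were mostly β-catenin regions in the same cells. CdxKO β-catenin libraries had 1 of their own 20000 best peaks at 65.1%, 66.4% and 62.4% of gained regions (mean 64.6% ± 2.00, n = 3). For kept regions the mean was 49.1% ± 7.77 and for lost regions 6.59% ± 2.10, against 11.8% of all regions. The order was the same for CdxKO LEF1, with 31.2% ± 0.58 of gained, 17.9% ± 1.58 of kept and 2.06% ± 0.30 of lost regions, against 4.25% of all. Of the gained regions 250 (54.6%) had a peak in all 3 β-catenin libraries, and 59.6% of these had a TCF/LEF form. The 111 gained regions (24.2%) with a peak in no β-catenin library had a TCF/LEF form in 7 cases (6.31%) and a SOX form in 34.2%. Over all of the 20000 best SOX2 peaks the share under a CdxKO β-catenin peak was 22.6%, 23.1% and 21.9% in CdxKO and 19.4%, 18.4% and 16.8% without CHIR. The β-catenin and LEF1 libraries used here are of CHIR-treated cells, so the values say where β-catenin lay with CHIR and not how it changed.

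**Figure D4:**
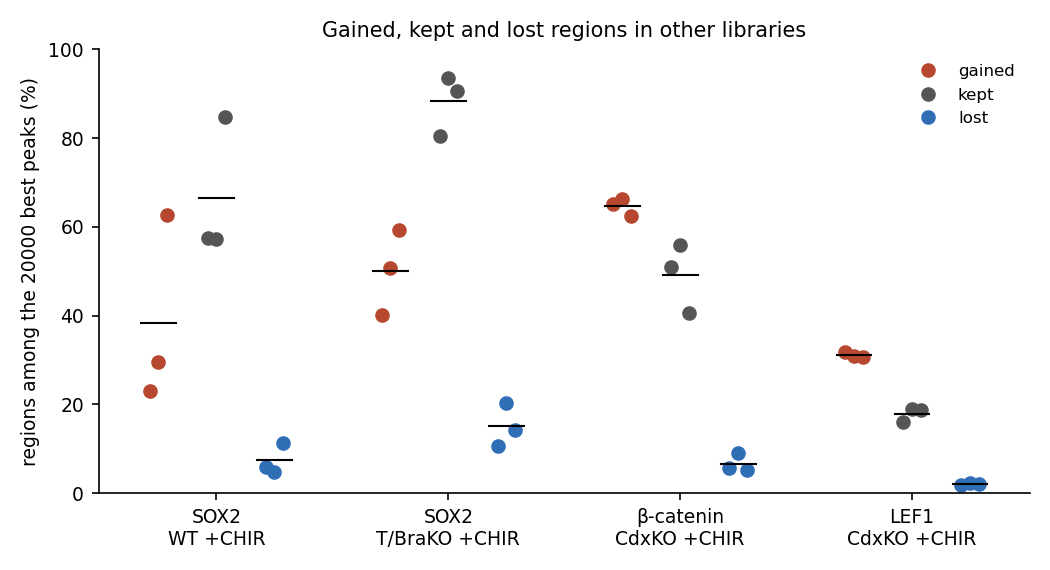
Share of gained, kept and lost regions (vertical axis, percent) under one of the 20000 best peaks of other libraries, as points for each of 3 libraries with a line at the mean. CdxKO β-catenin covers 64.6% of gained and 6.59% of lost regions, and LEF1 31.2% and 2.06%.

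Gained regions were in part shared with the other CHIR-treated SOX2 libraries, whose Cdx genes are not mutated. They lay under 1 of the 20000 best peaks in 38.4% ± 21.3 of cases in CHIR-treated WT and in 50.1% ± 9.62 in T/BraKO cells, against 11.3% ± 4.48 and 17.8% ± 3.12 of all regions. Kept regions were at 66.4% ± 15.8 and 88.3% ± 6.87, above the gained ones, and lost regions at 7.40% ± 3.48 and 15% ± 4.91, near the share over all regions. At least 1 CHIR-treated WT library held 324 of the 458 gained regions (70.7%) and at least 1 T/BraKO library 337 (73.6%). Only 28 (6.11%) were in all 6 of these libraries and 55 (12%) in none. With full lists 7 of the 458 (1.53%) were in none of the 6. Of the lost regions 890 (58.5%) were in none of the 6 among the best peaks, but 206 (13.5%) with full lists, where 1154 (75.8%) had a peak in at least 1 CHIR-treated WT library. The CHIR-treated WT libraries varied more among themselves than the CdxKO libraries, with a mean Jaccard index within the group of 0.0886, and the cause was not tested.

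The gained regions with the best ranks and no peak in any full WT list without CHIR lay nearest Naa30, B4galt5, T2, Dock8 and Defa21. At chr14:49155445-49156102, 16526 bp upstream of Naa30, which encodes an N-terminal acetyltransferase subunit, the folds in CdxKO were 23.9, 20.6 and 30.5. β-catenin folds there were 150, 113 and 179 and LEF1 folds 56.9, 63.0 and 77.2. At chr2:167378941-167380049, 30324 bp upstream of the galactosyltransferase gene B4galt5, SOX2 folds were 31.3, 21 and 15.6 and β-catenin folds 59.8, 39.6 and 86.8. Both windows are printed above. The region at chr17:8389097-8390185 in an intron of T2 had folds of 21, 17.6 and 19.4, and its summit lay 45.2 kb upstream of the start of T, the T-box gene of the primitive streak. β-catenin folds there were 42.6, 43.7 and 18.8, and no TCF/LEF form was found in its window. An intron region of Dock8, a guanine nucleotide exchange factor gene, had folds of 16.9, 16.2 and 22. The Defa21 region had folds of 7.62, 14.2 and 7.72 and lies among defensin genes, near-identical copies among which reads can be misplaced. All 5 regions had a peak in each full list of CHIR-treated WT cells, with folds of 10.3, 13.4 and 28.4 at Naa30.

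The lost regions with the best ranks and no peak in any full CdxKO list lay nearest Clcn3, Mon1b, Pnpt1, Flrt2 and Slc6a11. In an intron of the chloride transporter gene Clcn3, at chr8:60938956-60939723, the folds without CHIR were 45.7, 48.4 and 34.2. The Mon1b region had 47.4, 37.1 and 43.4, and the Pnpt1 region 39.7, 67.7 and 23.8. The Slc6a11 region, in an intron of this GABA transporter gene, had 32.1, 24.7 and 26.1, and the Flrt2 region, 1444494 bp away from that gene, had 30.1, 35.8 and 33.5. CdxKO β-catenin had no peak at 4 of these 5, and 1 library a fold of 4.23 at Slc6a11. CdxKO LEF1 had a peak at 4 of them, with folds of 5.07 at Clcn3, 8.78 and 7.85 at Mon1b, 3.71 at Flrt2 and 5.58 at Slc6a11. The Mon1b and Slc6a11 windows held a TCF/LEF form.

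Occupancy was compared at the regions with a peak in all 6 full lists and among the 20000 best of at least 1. The log2 fold of each library was set to the same median and limma was fitted over these 9370 regions. Medians before this step were 3.10 in CdxKO and 3.33 without CHIR, a shift of -0.23, and changes are given relative to it. At an adjusted p under 0.05, 246 regions (2.63%) rose in CdxKO with CHIR and 395 (4.22%) fell, 641 (6.84%) together. Without that setting of the median, 124 were higher and 695 lower. Leaving out CdxKO replicate 3 left 94 higher and 178 lower, CdxKO replicate 1 left 118 and 207, WT replicate 1 left 126 and 233, and WT replicate 2 left 138 and 221. Sites absent from 1 group are not tested here. Of the 3784 kept regions 92 rose and 125 fell. At regions that rose a TCF/LEF form was found in 35.4% (95% Wilson interval 29.7% to 41.5%), at those that fell in 6.33% (4.32% to 9.18%), and at all tested in 12.3%. The SOX form was in 27.6%, 44.3% and 33.9%. One of the 20000 best β-catenin peaks of CdxKO lay at 78.3% ± 4.48 of the regions that rose, 27.5% ± 11.7 of those that fell and 35.6% of all tested, and a LEF1 peak at 44.9% ± 2.31, 6.92% ± 0.77 and 12.4%. Regions that rose thus held the TCF/LEF form, β-catenin and LEF1 more often than those that fell, as gained regions did against lost ones. One of the 20000 best SOX2 peaks of CHIR-treated WT lay at 76.2% ± 14.5 of the regions that rose, 34.3% ± 13.2 of those that fell and 44.3% of all tested. For T/BraKO the shares were 91.5% ± 5.28, 64.2% ± 10.8 and 67.0%. Strong SOX2 at regions that rose was thus not particular to CdxKO.

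The smallest p among regions that rose were near Csmd3, Cul4b, Grsf1, St18 and Slc8a1. At chr15:47354507-47355187, 1436980 bp from Csmd3, the folds were 51.8, 48.6 and 62.1 in CdxKO and 9.80, 10.0 and 6.92 without CHIR, a log2 change of 2.84 ± 0.40 (SE, limma adjusted p = 3.38e-06). Its window held a TCF/LEF, a SOX and a T-box form. At Grsf1, 3418 bp upstream of this RNA-binding protein gene, the folds were 35.7, 31.1 and 36.4 against 8.98, 4.21 and 6.45. At Cul4b, which encodes a ubiquitin ligase scaffold, they were 26.1, 22.3 and 36.9 against 4.59, 3.86 and 6.88. The groups did not overlap at any of these 3 regions. St18 rose by a log2 change of 2.72 and Slc8a1 by 2.55. Regions that fell most clearly were near Zranb2, Zeb2, Cdh15, Otop1 and Ephb1. At chr3:157320795-157321625, 212887 bp upstream of Zranb2, the folds were 5.89, 8.11 and 3.76 in CdxKO and 39.3, 69.8 and 59.0 without CHIR (log2 change -3.04 ± 0.41, limma adjusted p = 1.43e-06). At Otop1, a proton channel gene, a region 36 bp upstream of the start had folds of 6.63, 4.22 and 7.55 against 53.0, 54.6 and 29.4 (log2 change -2.65). The Zeb2 region, 1389826 bp away, changed by -3.00, Cdh15 by -2.71 and the intron region of Ephb1, a receptor tyrosine kinase gene, by -2.62. β-catenin had no peak at Zranb2 or Zeb2, and 1 library had a peak at each of the others, with folds of 6.89 at Cdh15, 3.93 at Otop1 and 5.45 at Ephb1.

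Loci of known genes were described by 9 lists, each locus being the gene with 10 kb on either side. Of 31 tested regions at 14 WNT feedback genes 3 rose and none fell, with a median log2 change of 0.39, against 2.63%, 4.22% and a median of 0.04 over all tested. Their peaks among the 20000 best numbered 50, 46 and 46 in CdxKO and 37, 44 and 27 without CHIR (exact permutation test, p = 0.1, adjusted 0.18 over 9 lists), an order that turned around, to -5.33 peaks, with all peaks past a -log10 q of 5. Sp5, a zinc-finger factor and direct WNT target, had its region at chr2:70474566-70475283, over a UTR with the summit 24 bp downstream of the start. Its folds were 48.8, 58.2 and 46.4 in CdxKO and 18.4, 18.0 and 14.1 without CHIR, a log2 change of 1.84 ± 0.40 (SE, limma adjusted p = 0.00221). SOX2 was thus present at Sp5 without CHIR, and in CHIR-treated CdxKO cells β-catenin folds there were 143, 148 and 169. Axin2 encodes the scaffold of the β-catenin destruction complex, itself a WNT target. Its intron region at chr11:108920352-108921669 had folds of 21.8, 13.5 and 11.5 against 6.72, 10.6 and 4.92 (1.32 ± 0.41, limma adjusted p = 0.0355), and its call was lost in 5 of the 6 fits that left out a library. Lgr5, the R-spondin receptor gene, had an intron region at chr10:115469000-115469602 with folds of 18.2, 66.5 and 37.6 against 6.22, 14.1 and 19.9, which overlap between groups (1.80 ± 0.44, limma adjusted p = 0.00604), and its call was lost in 3 of them. The gene start nearest to this region was that of Zfc3h1, 84225 bp away. A region in an intron of Znrf3, which encodes a ubiquitin ligase that removes WNT receptors, was gained, 1 of 95 regions at these loci, against 0.74% of all regions.

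At 15 anterior Hox genes (paralogue groups 1 to 5), which pattern the hindbrain and neck, 2 of 19 tested regions rose and none fell, against 2.63% and 4.22% over all tested, with a median of 0.41. Of 106 regions at these loci 2 were gained and 2 lost, against 0.74% and 2.46% of all regions. Peaks numbered 40, 34 and 41 in CdxKO and 26, 33 and 23 without CHIR (exact permutation p = 0.1, adjusted 0.18), but the order reversed with 50000 peaks a list (-5.33), full lists (-2.00) and a -log10 q of 5 (-11.3). The Hoxb1 region at chr11:96364789-96366325, with the summit 197 bp upstream of the start, had folds of 42.3, 38.7 and 37.7 against 20.6, 15.6 and 9.69 (1.66 ± 0.40, limma adjusted p = 0.00568). It ranked 60th, 128th and 11th in the CdxKO lists, and β-catenin folds there were 52.1, 49.6 and 30.2. A gained region between Hoxb2 and Hoxb3 had folds of 6.05, 9.55 and 7.81 against 5.33, 5.24 and 4.70 and did not pass (limma adjusted p = 0.227). Regions at Hoxa3 and 9181 bp downstream of the Hoxb1 start were lost. At 24 posterior Hox genes, which depend on CDX in the trunk, none of 13 tested regions was called, against 6.84% over all tested (median 0.48). With so few regions tested, this is no result about the list. Peaks there numbered 34, 22 and 26 against 18, 22 and 14 (exact permutation p = 0.2, adjusted 0.257), again reversed with longer lists (-14.3 with 50000 peaks, -11.0 with full lists and -21.3 with a -log10 q of 5). Of 76 regions 1 was lost, at Hoxc12 and Hoxc13, against 2.46% of all regions.

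**Figure D5:**
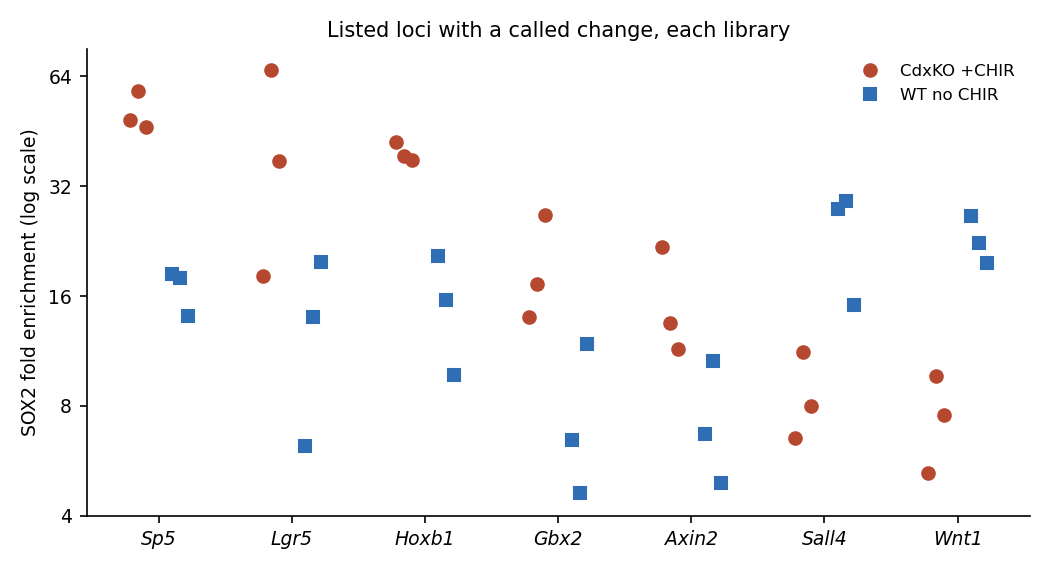
SOX2 fold at the summit (vertical axis, log2 scale) at regions of listed genes that passed the test, with 1 point for each of 3 CdxKO and 3 WT libraries without CHIR. Folds at Sp5 and Hoxb1 are higher in CdxKO with no overlap, and those at Wnt1 and Sall4 lower with no overlap.

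Loci of the primitive streak and mesoderm list (15 genes) had 38, 30 and 37 peaks in CdxKO and 27, 31 and 21 without CHIR (exact permutation p = 0.2, adjusted 0.257), an order that reversed with 50000 peaks (-2.33) and a -log10 q of 5 (-5.33). None of 18 tested regions was called, against 6.84% over all tested (median 0.54), and 3 of 80 regions were gained, against 0.74% of all. At chr11:59243892-59244155, in the locus of the ligand gene Wnt3a, the gained region had folds of 11.5, 6.34 and 14.0 and no peak in any full WT list without CHIR. The other gained regions were 1123 bp and 1923 bp upstream of Nodal, a TGFβ-family ligand gene.

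At 12 epiblast genes the 20000 best peaks numbered 32, 41 and 34 in CdxKO and 56, 50 and 45 without CHIR, with no overlap (exact permutation p = 0.1, adjusted 0.18). Of 30 tested regions 1 fell and none rose, against 4.22% lower over all tested, with a median of -0.05. The region that fell was at Sall4, a zinc-finger factor gene of pluripotent cells, where folds at chr2:168761871-168763285 were 6.53, 11.2 and 7.97 against 27.8, 29.1 and 15.2 (log2 change -1.23 ± 0.41, limma adjusted p = 0.0495, lost in 5 of the 6 fits that left out a library). Of 82 regions at these loci 4 were lost, against 2.46% of all regions. They were 3 at Pou3f1, a POU factor gene of epiblast and early neural cells, and 1 at Dnmt3b, a de novo DNA methyltransferase gene. The Pou3f1 region 11119 bp downstream of the start had folds of 24.6, 29.5 and 6.89 without CHIR and no peak in any full CdxKO list. At 10 anterior neural genes the peaks numbered 26, 26 and 23 against 38, 45 and 25, which overlap (exact permutation p = 0.3, adjusted 0.338). None of 18 tested regions there was called, against 6.84% over all tested (median -0.20). Of 80 regions at these loci 3 were lost, close to the 2.46% over all regions, at the forebrain homeobox genes Hesx1, Lhx2 and Six3. At Hesx1 the folds without CHIR were 16.6, 21.8 and 9.95, and at Lhx2 9.78, 9.23 and 7.18, with no peak in any full CdxKO list at either.

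At 10 midbrain and hindbrain genes 1 of 16 tested regions rose and 1 fell, against 2.63% and 4.22% over all tested (median 0.08), and a single call each way is no result about the list. The region 4906 bp upstream of Gbx2, a homeobox gene of the hindbrain and posterior epiblast, had folds of 14.0, 17.2 and 26.7 against 6.47, 4.63 and 11.8 (1.63 ± 0.42, limma adjusted p = 0.00943, lost in 3 of the 6 fits that left out a library), and β-catenin folds of 110, 127 and 180. The region 8389 bp downstream of the start of the ligand gene Wnt1 had folds of 5.22, 9.69 and 7.55 against 26.6, 22.4 and 19.7 (-1.42 ± 0.40, limma adjusted p = 0.0207, lost in 4 of them), and no β-catenin peak. Peaks over these loci numbered 30, 20 and 16 against 27, 24 and 23 (exact permutation p = 0.6). At 11 naive pluripotency genes there were 25, 19 and 21 peaks against 16, 16 and 16 (exact permutation p = 0.1, adjusted 0.18), reversed to -8.33 with a -log10 q of 5. None of 14 tested regions there was called, against 6.84% over all tested (median 0.47).

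Of the mutated genes, Cdx1 and Cdx2 carried SOX2 in both groups. Among the 20000 best peaks, Cdx2 had 5, 6 and 5 in CdxKO and 4, 2 and 4 without CHIR, Cdx1 had 2, 2 and 1 against 1, 1 and 2, and Cdx4 had 0, 1 and 1 against none. Over the 3 genes the counts were 7, 9 and 7 against 5, 3 and 6 (exact permutation p = 0.1, adjusted 0.18). In an intron of Cdx2, at chr5:147303847-147305350, a kept region had folds of 19.3, 22.3 and 23.4 in CdxKO and 14.3, 15.5 and 13.8 without CHIR. The groups did not overlap, but the region did not pass the test across all regions (log2 change 0.80 ± 0.40, limma adjusted p = 0.241). Its window held both a SOX and a TCF/LEF form. A kept intron region of Cdx1 had folds of 22.5, 13.1 and 21 against 19.2, 13.3 and 11.8 (0.57 ± 0.41, limma adjusted p = 0.462). These peaks show occupancy of the loci and do not check the mutations.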

How the data were processed

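ChIP-seq libraries were processed by the authors with nf-core/chipseq as single-end reads (Trim Galore, BWA, mm10), and peaks were called per library with MACS2. No source used here names each library's control input. The deposited peak lists give the fold enrichment at the summit (a linear ratio), the -log10 p and the -log10 q as deposited by the authors, and a score. No read counts were used here, so counts could not be tested. The reads per library were inferred from the fold and -log10 p values of the peaks and are not counts of reads.

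The 20000 best peaks by -log10 q, or full lists, were merged by at least 1 bp overlap. Group values were compared by exact two-sided permutation tests, and log2 folds, median-centred, by limma 3.58.1 (R 4.3.3) with Benjamini-Hochberg adjustment at 0.05, over regions in all 6 full lists. Folds are the highest overlapping peak's. The limma step was tested on simulated data. Python 3.11.15 with scipy 1.17.1 was used for the rest, and genes and sequences came from GRCm38.p6 and GENCODE M21. Replicates are independent biological replicates per the labels.

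Named are the mutated genes, up to 4 genes a list whose region passed, the 5 best ranked regions gained, lost and in all lists, and the 5 smallest p in each direction; other gained or lost regions at listed genes were named after their values were seen. Members, lists and tests were chosen with earlier results of these data known. One region that the rule names is not reported here.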

Additional observations from a re-analysis of the deposited data

How the results depend on the processing

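Across 526 alternatives for 44 results, 17 reversed the direction. Exact tests of 3 against 3 cannot go below 0.1 under any setting, so for them only direction and size can be read. Differences are CdxKO with CHIR minus WT without CHIR. The difference in log10 peak number reversed to -0.11 with peaks past a -log10 q of 5, that of the OCT-SOX share to -0.00867 points with 50000 peaks and -0.0298 with full lists, and that of the promoter share to -0.879 and -2.28. The naive, WNT feedback, primitive streak, anterior Hox and posterior Hox peak numbers reversed to -8.33, -5.33, -5.33, -11.3 and -21.3 with a -log10 q of 5, primitive streak and both Hox lists to -2.33, -5.33 and -14.3 with 50000 peaks, and the Hox lists to -2.00 and -11.0 with full lists. With 5000 peaks, 50000 peaks, full lists and a -log10 q of 5 the lost regions numbered 580, 2402, 3053 and 2810 and the kept 1304, 5920, 9811 and 5901; 997 were gained in full lists. The limma calls were 124 higher and 695 lower without centring, and 60 (11 higher, 49 lower) with missing folds filled by each library's lowest, over 61879 regions, where each of the 18 calls that the naming rule picked was lost.

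Leaving out 1 library gave 606 to 1028 gained, 1834 to 3036 lost and 3960 to 4608 kept regions, 272 to 628 limma calls (94 to 253 higher, 178 to 375 lower), a kept-share difference from T/BraKO of -0.726 to 6.38 points and from WT with CHIR of 17.2 to 26.6, and a midbrain and hindbrain difference of -6.67 to 0.333 peaks. Calls at Sp5, Hoxb1 and the 10 regions of smallest p held in each such fit.

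Same-numbered libraries had deviations correlated at 0.0265, 0.0524 and 0.102, not all over 0.1, so the numbers were not taken as pairs, although each library correlated best with its own number, a hint from the data and not from the design. With the replicate block limma made 781 calls (313 higher, 468 lower), and exact tests within blocks cannot go below 0.25. The number of libraries limits the precision.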
